A study of Mus musculus with 22 samples.

Results

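Muscle stem cells of uninjured muscle labelled ZT16 were compared with those labelled ZT4, with 3 samples at each time, taken by sample title from the 22 samples of the series. The other 16 samples came from muscle 1 or 3 days after injury and served here only to estimate the spread in alternative fits. ZT is zeitgeber time, counted in hours from lights on. All 6 samples shared the genotype Pax7-zsgreen, in which the fluorescent protein ZsGreen marks cells that express Pax7, the transcription factor that defines muscle stem cells. All were total RNA from ZsGreen-positive cells of hindlimb muscle that had been lightly fixed in vivo, isolated with the miRNeasy FFPE kit and turned into libraries with a low-input kit (SMART-seq v4). No injury and no agent was given to either group, so the groups differ, as far as labelled, only in the time. In the labels the ZT belongs to the time of injury, and no hour of collection is given for uninjured muscle. They also do not give the age or sex of the mice, the sorting gate, or whether replicates came from separate mice, so p-values measure the spread between these samples, which may be partly technical.

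In nearly every mammalian cell a clock runs on a feedback loop. The activators BMAL1 (gene Arntl) and CLOCK or NPAS2 bind E-box sequences and switch on their own repressors, the PER and CRY proteins, while REV-ERB proteins (Nr1d1, Nr1d2) repress Arntl and Npas2, and factors acting on D-box sequences (Tef, Hlf, Dbp, and their repressor Nfil3) carry the rhythm to output genes. Resting muscle stem cells sit under the basal lamina of the muscle fibre, divide rarely and, like most cells, can switch on immediate early genes such as Fos and Egr1 soon after a stimulus. Hormones that follow the day, above all glucocorticoids, also reach them.

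The samples held 5965957 to 8108753 estimated counts and 15812 to 17917 detected genes each, and ZT4 replicate 3 was lowest in both. Levels below are CPM, counts scaled to a common library size by the TMM method over the 6 samples, so each is a share of the RNA of its sample. In bulk samples, fewer cells of a type and less RNA per cell cannot be told apart. The list of 10 muscle stem cell markers summed to 7375 to 9046 CPM at ZT4 and 9830 to 11108 CPM at ZT16. Its median log2 fold change was 0.11, with 6 genes positive and 4 negative, so the sum does not describe every member. Pax7 itself was at 301, 362 and 365 CPM at ZT4 and 313, 355 and 297 at ZT16, with log2 fold change −0.09 ± 0.15, adjusted p = 0.777, and its ranges overlapped. Of 134 marker genes of all lists found, 9 had no count in any of the 6 samples, among them the neutrophil genes Ly6g, Mmp8, Camp and Ngp and the lymphocyte genes Cd3g, Ms4a1 and Klrb1c. The neutrophil list summed to at most 3.85 CPM and the lymphocyte list to at most 5.91 CPM in any sample. Macrophage markers summed to 20.1 to 49.3 CPM at ZT4 and 38.9 to 115 CPM at ZT16, and myofiber markers to 888 to 1544 and 1656 to 2124 CPM. Fibro-adipogenic markers summed to 6098 to 6741 CPM at ZT4 and 6810 to 7333 CPM at ZT16, and endothelial markers to 128 to 143 and 162 to 251 CPM. The sum of the mural markers went the other way, with 2230 to 2419 CPM at ZT4 and 1461 to 1909 CPM at ZT16. Its genes were mixed, 4 with positive and 6 with negative log2 fold changes (median −0.13). The part of other cells in the results was not tested.

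Of 13472 genes tested, 577 (4.28%) differed between the times in edgeR at an adjusted p below 0.05. Of these, 252 (1.87%) were higher and 325 (2.41%) lower at ZT16, and 160 of the first and 146 of the second changed at least 2-fold. The 3 ZT16 values lay outside the range of the 3 ZT4 values for all 577, as a test of tight separation favours, and over all genes tested this held upward for 12.6% and downward for 14.9%. ZT16 replicate 2 by itself was above all 3 ZT4 samples in 26.6% of all genes tested and below them in 27.3%. The count leans on single samples. It fell to 42 without ZT4 replicate 2, to 66 without ZT16 replicate 1 and to 44 without ZT16 replicate 3, and stayed between 509 and 753 without any other sample. With the spread shared over all 22 samples it was 2663 (17.7%), 1287 up (8.53%) and 1376 down (9.12%).

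ZT16 replicates 1 and 3 carried high immediate early genes and replicate 2 did not. The 49 genes of that list summed to 5872, 8899 and 4706 CPM at ZT4 and to 104470, 7850 and 89372 CPM at ZT16. They took up 9.59% and 8.28% of the counts of ZT16 replicates 1 and 3, and 0.466% to 0.918% in the other 4 samples. In 44 of the 47 members tested, both replicates 1 and 3 were above every other sample, whereas replicate 2 lay within the ZT4 range in 23 of 47, above it in 17 and below it in 7. Fos, a subunit of the AP-1 transcription factor, was at 326, 560.4 and 207 CPM at ZT4 and 20600, 479 and 16490 at ZT16. Egr1, a zinc finger factor, was at 1006, 1374 and 438 CPM at ZT4 and 18970, 550.1 and 15290 at ZT16. In both genes replicate 2 lay within the ZT4 range. Atf3, a stress-induced factor, was at 0.575, 1.03 and 1.86 CPM at ZT4 and 397, 1.46 and 352 at ZT16, a difference carried by the same pair of samples. The ZT16 replicates were far apart, and the number of the 47 that passed depends on the tool, with 1 in edgeR, 34 in DESeq2 and 2 in limma voom. It was 37 in edgeR without replicate 2. The 1 was Zfp36l2, which promotes decay of AU-rich messages (210.3, 209.6 and 229.9 CPM at ZT4 and 416, 267 and 511 at ZT16, log2 fold change 0.88 ± 0.21, adjusted p = 0.0449). The list's median log2 fold change was 2.53 over all 6 samples and 0.42 with replicate 2 alone at ZT16. In the fit of all 22 samples 39 of 48 rose, and in the matching 20-sample fit without replicates 1 and 3 none of 48 rose and 1 fell, with an unadjusted p below 0.05 in 6.

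**Figure D1:**
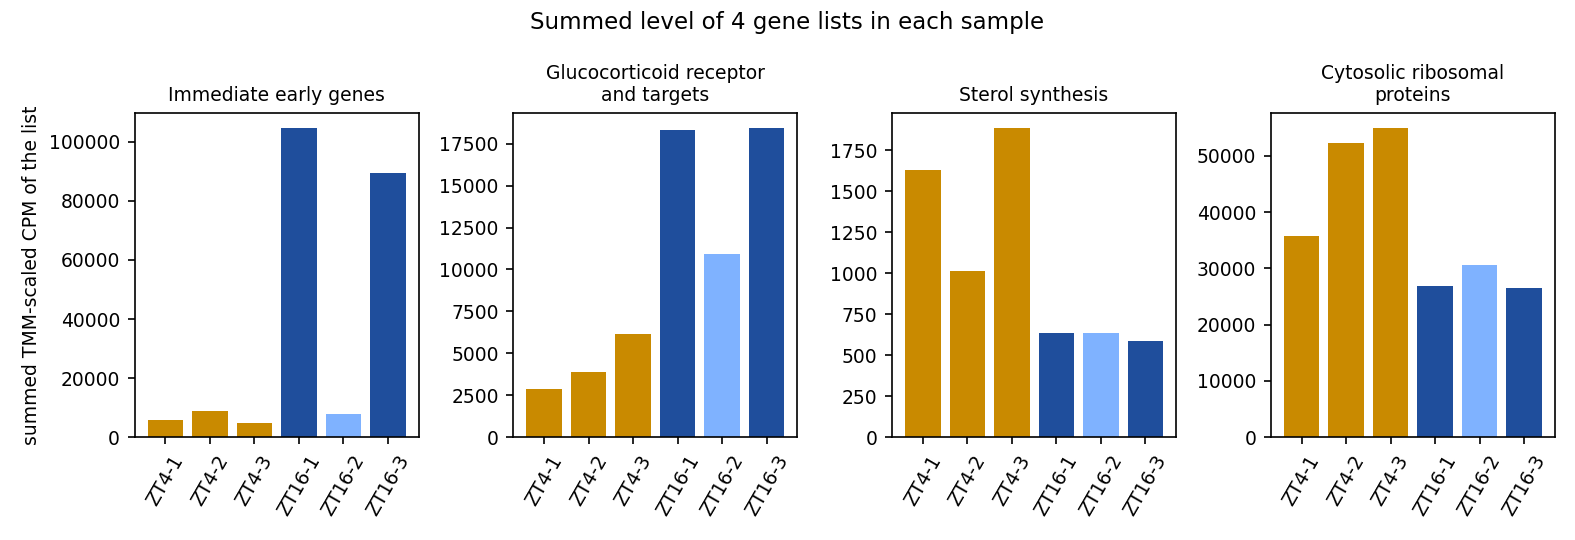
Summed TMM-scaled CPM of 4 gene lists in each of the 6 samples (1 bar per sample, with ZT4 in gold, ZT16 replicates 1 and 3 in dark blue and ZT16 replicate 2 in light blue). Immediate early genes reach 104470 and 89372 CPM in ZT16 replicates 1 and 3 but 7850 in replicate 2, whereas sterol synthesis and ribosomal protein genes are lower in all 3 ZT16 samples than in any ZT4 sample.

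With replicates 1 and 3 left out, replicate 2 stood alone at ZT16 against 3 ZT4 samples and its spread was taken from ZT4. Of 14585 genes tested, 2 passed in edgeR (0.0137%), 1 in each direction and Cebpb the one upward, and 984 had an unadjusted p below 0.05 (115 passed in DESeq2 and 21 in limma voom). ZT4 replicate 3 decides much of that count, which was 270 without it. The 252 higher genes had a median log2 fold change of 1.14 over 6 samples and 1.00 with replicate 2 alone, and the 325 lower genes −0.95 and −0.82. These values share the ZT4 samples and replicate 2, on which the genes were also chosen, so they are no independent check. When the spread was taken from 20 samples, 176 genes rose (1.06%) and 291 fell (1.76%) with replicate 2 alone, and 95 of the 252 and 138 of the 325 were among them. Below, a gene said to hold without replicates 1 and 3 passed in that 20-sample fit. Most of its samples came from injured muscle. In an earlier look at the series, uninjured replicates spread more than injured ones, so this shared spread may be too small here. The fit also uses the same ZT4 samples and replicate 2, so holding in it is no independent check.

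Genes of sterol synthesis were lower at ZT16. Cells make cholesterol through a chain of enzymes that the factor SREBP2 (Srebf2) switches on when sterols are low, whereas the exporters Abca1 and Abcg1 are switched on by LXR factors when sterols are high. Of 20 synthesis enzymes tested, 10 fell and the other 10 did not pass, for a median log2 fold change of −1.23 against −0.01 over all genes tested. In the 4-sample fit without replicates 1 and 3 the median was −1.29 and none of 20 passed in edgeR (12 at an unadjusted p below 0.05, 9 in DESeq2 and none in limma voom). In the 20-sample fit the median was −1.31 and 9 of 20 fell. In replicate 2, 17 of the 20 enzymes lay below the ZT4 range and 1 above it. The list's sum was 1630, 1015 and 1884 CPM at ZT4 and 637, 634 and 589 CPM at ZT16.

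Of 15 genes of sterol sensing, uptake and export 2 rose, 4 fell and 9 did not pass (median 0.01). Over all genes tested, 1.87% rose and 2.41% fell. Srebf2 (chromosome 15, 82147181 to 82205379 on GRCm38, as all positions here) was at 298, 295 and 337 CPM at ZT4 and 124, 117 and 147 at ZT16 (log2 fold change −1.26 ± 0.15, adjusted p = 0.00303). Insig1, which holds SREBP in the endoplasmic reticulum and is itself a target of it, was at 101, 122 and 142 CPM at ZT4 and 57.8, 34.2 and 42.1 at ZT16 (log2 fold change −1.44 ± 0.21, adjusted p = 0.00887). Neither gene's ranges overlapped. Stard4, a carrier of cholesterol between membranes, fell by 1.88 ± 0.42 on the log2 scale (adjusted p = 0.0343). All 3 held without replicates 1 and 3.

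Along the synthesis chain, Mvk, which phosphorylates mevalonate early on, was at 36.6, 22.4 and 41.3 CPM at ZT4 and 8.87, 9.18 and 11.3 at ZT16 (log2 fold change −1.77 ± 0.29, adjusted p = 0.0149). Fdps, which makes farnesyl diphosphate, was at 194, 83.2 and 182 CPM at ZT4 and 29.7, 23.3 and 27.4 at ZT16 (log2 fold change −2.51 ± 0.30, adjusted p = 0.00571). Both were low in each ZT16 sample, with ranges apart. Idi1, the isomerase between these steps, fell by 2.12 ± 0.34 on the log2 scale, and Fdft1, which commits farnesyl diphosphate to sterols, by 1.78 ± 0.29. Sqle, the oxygenase that forms squalene epoxide and a rate-limiting step, was at 173, 89 and 153 CPM at ZT4 and 25, 14.3 and 31.2 at ZT16 (log2 fold change −2.56 ± 0.33, adjusted p = 0.00834). Lss, which closes the sterol rings, fell by 1.94 ± 0.30. Of the later enzymes, Msmo1, which removes methyl groups from the ring, was at 119.6, 69.5 and 174 CPM at ZT4 and 24.4, 17.3 and 14.8 at ZT16 (log2 fold change −2.68 ± 0.34, adjusted p = 0.00787), and Cyp51 (−1.58 ± 0.29), Nsdhl (−1.50 ± 0.29) and Sc5d (−1.23 ± 0.25) fell too. Of these 10, Cyp51 (adjusted p = 0.05002) and Sc5d (adjusted p = 0.0653) missed the threshold without replicates 1 and 3. Hmgcs1, which joins acetyl units at the start of the chain, was at 100.3, 59.7 and 138 CPM at ZT4 and 66.8, 40.1 and 41.7 at ZT16, with 1 ZT16 value inside the ZT4 range (log2 fold change −1.0 ± 0.31, adjusted p = 0.1).

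The exporters moved the other way. Abca1 (chromosome 4, 53030787 to 53159895) was at 20, 30.3 and 40.8 CPM at ZT4 and 189, 131 and 154 at ZT16 (log2 fold change 2.39 ± 0.25, adjusted p = 0.00214). Abcg1 was at 0.805, 2.70 and 4.74 CPM at ZT4 and 19.5, 18.1 and 15.8 at ZT16 (log2 fold change 2.73 ± 0.53, adjusted p = 0.0215). In both genes every ZT16 sample exceeded every ZT4 sample, and both held without replicates 1 and 3. Mylip, an LXR target that encodes a ubiquitin ligase, was higher in each ZT16 sample but missed the threshold (log2 fold change 1.03 ± 0.28, adjusted p = 0.0629). Srebf1, the sister factor for fatty acids, did not pass (log2 fold change 0.32 ± 0.16, adjusted p = 0.282), and none of 14 fatty acid synthesis genes passed in edgeR (median 0.06; 4 at an unadjusted p below 0.05, 1 in DESeq2 and 2 in limma voom). Among the lowest p-values in the whole comparison was Dbi, a carrier of acyl-CoA esters, at 173, 139 and 149 CPM at ZT4 and 54, 49.9 and 43.6 at ZT16 (log2 fold change −1.65 ± 0.16, adjusted p = 0.00208), a gene chosen after its values were seen. The count of 10 fallen enzymes ranged from 2 without ZT16 replicate 3 and 4 without replicate 1 to 10 without ZT16 replicate 2 or ZT4 replicate 3.

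**Figure D2:**
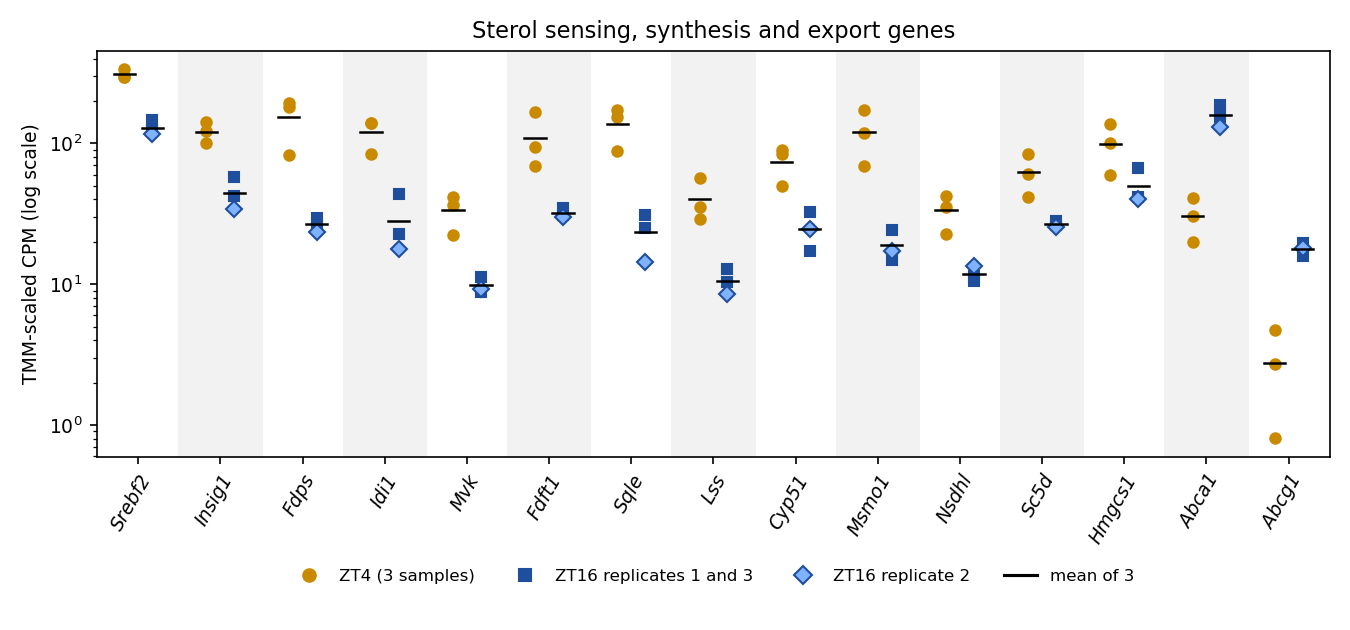
TMM-scaled CPM on a log axis for 15 sterol genes, with 1 point per sample (gold circles for ZT4, dark blue squares for ZT16 replicates 1 and 3, light blue diamonds for ZT16 replicate 2) and black bars for the mean of 3. From Srebf2 to Sc5d every ZT16 point lies below every ZT4 point, Hmgcs1 overlaps, and Abca1 and Abcg1 lie above.

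The sequence just before the gene start was searched in RefSeq promoters (GRCm38.p6, 250 bases before the annotated start, both strands) because SREBP2 works on sterol enzyme promoters together with the factor NF-Y, which binds CCAAT. Promoters were at hand for 15 of the 20 enzymes tested. CCAAT was present in 14 of these 15, and in all 7 of the fallen enzymes with a promoter, against 40.7% of the 9765 tested genes with one. It was not particular to these enzymes, since 7 of 8 clock repressors with a promoter held it too. The sterol element TCACNCCAC was in 1 of 15, Hmgcs1, against 1.18%. A match describes letters only and shows no binding. The windows below run 5′ to 3′ and show Hmgcs1 (chr13:119690101-119690240, plus strand) with its sterol element and 2 CCAAT letters on the reverse strand in capitals, and Idi1 (chr13:8885466-8885605, plus strand) and Lss (chr10:76531465-76531604, plus strand), both fallen, with CCAAT or its reverse in capitals.
Hmgcs1: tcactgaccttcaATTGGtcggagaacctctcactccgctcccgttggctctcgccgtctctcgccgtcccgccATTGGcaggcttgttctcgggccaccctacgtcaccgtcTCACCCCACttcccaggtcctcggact
Idi1: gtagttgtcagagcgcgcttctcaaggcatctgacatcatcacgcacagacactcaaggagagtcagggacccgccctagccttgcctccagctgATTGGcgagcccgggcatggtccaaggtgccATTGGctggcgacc
Lss: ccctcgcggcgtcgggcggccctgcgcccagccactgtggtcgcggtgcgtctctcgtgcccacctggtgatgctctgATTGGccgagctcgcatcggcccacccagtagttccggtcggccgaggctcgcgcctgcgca

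Clock genes differed at many points of the loop. The activators Arntl and Npas2 fell, of 6 activators and RORE-driven genes tested. Of 10 repressors that E-boxes drive 4 rose, 1 fell and 5 did not pass (median 1.15), and of 11 D-box factors and outputs 4 rose, none fell and 7 did not pass (median 2.34). Of 19 kinases, ligases and modulators 1 rose and none fell, against 4.28% of all genes tested that differed in either direction. With replicate 2 alone the medians of the repressors and outputs were 1.09 and 1.13, and 4 and 5 of them rose in the 20-sample fit. The count of 4 outputs was 1 without ZT4 replicate 2, ZT16 replicate 1 or ZT16 replicate 3.

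Arntl (chromosome 7, 113207465 to 113314126) was at 50.5, 25.6 and 33.9 CPM at ZT4 and 6.80, 5.39 and 14.1 at ZT16, with all ZT16 values below the ZT4 range (log2 fold change −2.06 ± 0.39, adjusted p = 0.0206). Npas2 was at 29.2, 33.3 and 51.8 CPM at ZT4 and 15.2, 9.18 and 6.68 at ZT16 (log2 fold change −1.87 ± 0.34, adjusted p = 0.0182). Clock, the usual partner of BMAL1, was at 45.5, 35.3 and 15.4 CPM at ZT4 and 40.7, 33.8 and 28.9 at ZT16 and overlapped (log2 fold change 0.10 ± 0.34, adjusted p = 0.905). Rora, which activates Arntl, did not pass (0.16 ± 0.20). The lowest Arntl value was that of replicate 2, and Arntl held without replicates 1 and 3, whereas Npas2 did not (adjusted p = 0.234).

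Among the repressors, Bhlhe41 (DEC2, which competes for E-boxes) was at 37.1, 25.7 and 45.1 CPM at ZT4 and 82.7, 115 and 96.1 at ZT16 (log2 fold change 1.45 ± 0.22, adjusted p = 0.0112). Per3 was at 48.4, 80.4 and 110.1 CPM at ZT4 and 179, 246 and 171 at ZT16 (log2 fold change 1.32 ± 0.28, adjusted p = 0.0347). Cry1, the strongest repressor of the loop, was at 20.4, 7.96 and 31.2 CPM at ZT4 and 75.8, 55.2 and 74.5 at ZT16 (log2 fold change 1.80 ± 0.41, adjusted p = 0.0484). In Bhlhe41 and Per3 the highest of all 6 values was in replicate 2, and these genes and Cry1 held without replicates 1 and 3. The REV-ERB genes went apart. Nr1d1 was at 346, 417 and 342 CPM at ZT4 and 169.9, 239 and 158 at ZT16 (log2 fold change −0.97 ± 0.18, adjusted p = 0.0195), and Nr1d2 at 102, 158 and 134 CPM at ZT4 and 287, 215 and 209 at ZT16 (log2 fold change 0.85 ± 0.19, adjusted p = 0.037). Both had ranges that did not overlap, and neither passed without replicates 1 and 3 (adjusted p = 0.187 and adjusted p = 0.062).

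Per2, a core repressor, differed widely and did not pass over 6 samples. It was at 9.54, 18.1 and 60.3 CPM at ZT4 and 216, 158 and 246 at ZT16 (log2 fold change 2.84 ± 0.75, adjusted p = 0.112). ZT4 replicate 3 was far above the other ZT4 samples and still below every ZT16 sample, and Per2 passed in the 20-sample fit without replicates 1 and 3 (adjusted p = 0.0311). Per1 was at 14.6, 32.2 and 91.2 CPM at ZT4 and 95.5, 69.1 and 106 at ZT16, and its ranges overlapped through the same sample (log2 fold change 0.99 ± 0.67, adjusted p = 0.47). Cry2 was at 59.3, 64.9 and 132 CPM at ZT4 and 161, 153 and 158 at ZT16 (log2 fold change 0.89 ± 0.27, adjusted p = 0.0996). ZT4 replicate 3 was the highest of the ZT4 samples in 25 of 46 clock genes tested, replicate 1 in 10 and replicate 2 in 11. This share was not taken over all genes tested, so it cannot be called particular to clock genes. Bhlhe40 (DEC1) was at 91.9, 92.7 and 189 CPM at ZT4 and 841, 158 and 664 at ZT16, high in replicates 1 and 3 and within the ZT4 range in replicate 2, as the immediate early genes were (log2 fold change 2.15 ± 0.72, adjusted p = 0.176). Without ZT4 replicate 3, 6 repressors rose. None of the 10 passed without ZT4 replicate 2 or ZT16 replicate 3, with an unadjusted p below 0.05 in 7 of them each time.

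Of the outputs, Wee1, a kinase that delays entry into mitosis, was at 8.05, 11.4 and 15.9 CPM at ZT4 and 94.3, 58 and 66.1 at ZT16 (log2 fold change 2.64 ± 0.29, adjusted p = 0.00208). Tef was at 148, 221 and 266 CPM at ZT4 and 447, 458 and 455 at ZT16, 3 ZT16 values that differed by less than the ZT4 ones (log2 fold change 1.10 ± 0.20, adjusted p = 0.0175). Hlf was at 1.15, 7.71 and 7.12 CPM at ZT4 and 39.8, 28.3 and 36.3 at ZT16 (log2 fold change 2.73 ± 0.54, adjusted p = 0.0294). All 3 held without replicates 1 and 3, and in none did the ranges overlap. The glycogen-targeting subunit gene Ppp1r3c rested on 2 counts at ZT4 and 60 at ZT16, so no fold is given. Dbp, a D-box activator that E-boxes drive, was at 124, 237 and 238 CPM at ZT4 and 285, 321 and 203 at ZT16 and overlapped (log2 fold change 0.43 ± 0.26, adjusted p = 0.384). Nfil3 was at 12.1, 9.12 and 18.8 CPM at ZT4 and 136, 23.9 and 134 at ZT16, with replicate 2 much nearer to ZT4 than replicates 1 and 3 (log2 fold change 2.89 ± 0.74, adjusted p = 0.0996). Usp2 was at 54.3, 42.1 and 169 CPM at ZT4 and 591, 339 and 1064 at ZT16, higher in each ZT16 sample but widely spread (log2 fold change 2.92 ± 0.77, adjusted p = 0.113). Csnk1d, the kinase that times the breakdown of PER, was the modulator that rose, at 213, 228 and 270.1 CPM at ZT4 and 506, 345 and 595 at ZT16 (log2 fold change 1.02 ± 0.20, adjusted p = 0.0235). It did not pass without replicates 1 and 3 (adjusted p = 0.0748).

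**Figure D3:**
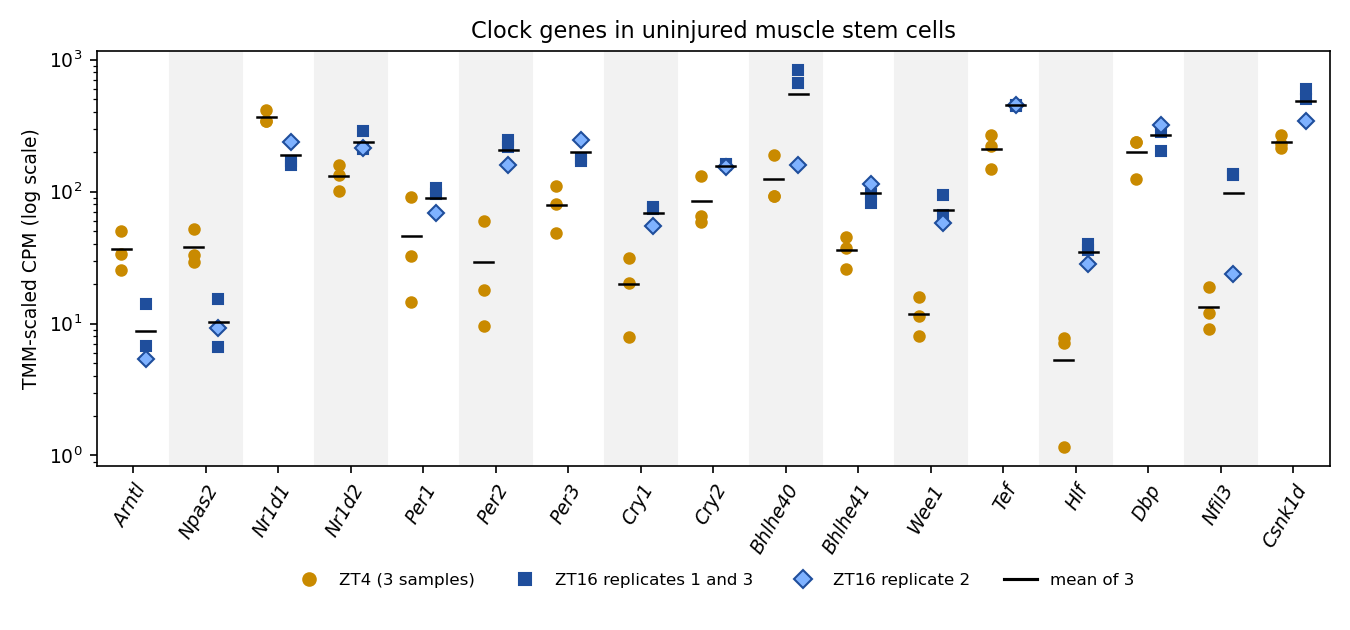
TMM-scaled CPM on a log axis for 17 clock genes, with 1 point per sample (gold circles for ZT4, dark blue squares for ZT16 replicates 1 and 3, light blue diamonds for ZT16 replicate 2) and black bars for the mean of 3. Arntl, Npas2 and Nr1d1 are lower at ZT16 in every sample, Per2, Per3, Cry1, Bhlhe41, Wee1, Tef and Hlf are higher, and replicate 2 is within or near the ZT4 range in Bhlhe40 and Nfil3.

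E-box letters (CACGTG, a palindrome) lay in the 250 bases before the start in 4 of the 8 repressors with a RefSeq promoter and 3 of the 10 outputs, against 10.1% of tested genes. The D-box letters TTATGTAA or TTACGTAA lay in 1 of these 18, Per3, against 0.71%. E-box letters were not particular to these lists. They also lay in 3 of 15 sterol synthesis genes and 3 of 10 genes of sterol sensing, uptake and export with a promoter. Windows are shown for 3 risen repressors and the risen output Tef, with these letters in capitals, namely 2 D-boxes in Per3 (chr4:151044751-151044890, minus strand) and an E-box each in Cry1 (chr10:85185055-85185194, minus strand), Bhlhe41 (chr6:145865454-145865593, minus strand) and Tef (chr15:81802526-81802665, plus strand, the first of 2 RefSeq starts). Nothing in these data tests them.
Per3: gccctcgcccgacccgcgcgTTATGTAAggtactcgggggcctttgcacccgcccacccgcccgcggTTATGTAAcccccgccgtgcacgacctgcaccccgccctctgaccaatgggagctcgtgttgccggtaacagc
Cry1: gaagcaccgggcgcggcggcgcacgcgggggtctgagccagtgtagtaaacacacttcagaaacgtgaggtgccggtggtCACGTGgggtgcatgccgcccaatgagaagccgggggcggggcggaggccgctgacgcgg
Bhlhe41: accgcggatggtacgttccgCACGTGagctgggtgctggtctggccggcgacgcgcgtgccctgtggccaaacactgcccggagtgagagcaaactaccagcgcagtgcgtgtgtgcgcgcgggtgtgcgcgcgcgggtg
Tef: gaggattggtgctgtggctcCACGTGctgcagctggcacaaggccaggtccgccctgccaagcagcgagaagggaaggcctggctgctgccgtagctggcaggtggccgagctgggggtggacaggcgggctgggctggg

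All 24 measured genes of the glucocorticoid receptor and its targets had positive log2 fold changes, with a median of 1.47, but 4 passed in edgeR (11 in DESeq2 and 10 in limma voom), namely Cebpb, Ddit4, Cebpd and Klf9. In 14 of the 24 the ranges did not overlap. With replicate 2 alone the median was 0.93 in the 4-sample fit and 0.62 in the 20-sample fit. In 9 of the 24, replicates 1 and 3 were both above every other sample. Cebpb, a transcription factor of stress and metabolism (chromosome 2, 167688915 to 167690418), was at 35.6, 45.2 and 36.4 CPM at ZT4 and 330.3, 347 and 941 at ZT16 (log2 fold change 3.79 ± 0.47, adjusted p = 0.0158). It was the gene that passed upward in the 4-sample fit (log2 fold change 3.17 ± 0.21, adjusted p = 0.005). Ddit4, an inhibitor of the growth kinase mTORC1, was at 7.93, 12.5 and 21.9 CPM at ZT4 and 42, 86.4 and 109 at ZT16 (log2 fold change 2.51 ± 0.45, adjusted p = 0.0263). In both genes replicate 2 was higher than replicate 1.

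Several classical targets were highest in replicate 2, the sample without high immediate early genes, but did not pass over 6 samples. Tsc22d3 (GILZ, an anti-inflammatory protein) was at 219.6, 270.2 and 1004 CPM at ZT4 and 1858, 3326 and 2360 at ZT16 (log2 fold change 2.34 ± 0.68, adjusted p = 0.128). Fkbp5, a cochaperone that damps the receptor, was at 33.8, 32 and 78.1 CPM at ZT4 and 199, 346 and 130.4 at ZT16 (log2 fold change 2.24 ± 0.52, adjusted p = 0.0731). Hsd11b1, which regenerates active glucocorticoid, was at 216, 275 and 561 CPM at ZT4 and 786, 1169 and 702 at ZT16 (log2 fold change 1.34 ± 0.37, adjusted p = 0.0837). All 3 passed in the 20-sample fit without replicates 1 and 3 (adjusted p = 0.0358, 0.000154 and 0.0479). Klf9, a factor that links the hormone to the clock, was at 154, 156 and 276 CPM at ZT4 and 528, 449 and 318 at ZT16 (log2 fold change 1.15 ± 0.26, adjusted p = 0.0428) and did not (adjusted p = 0.351). Other members followed the immediate early genes. Dusp1, a phosphatase of stress kinases that is also an early gene, was at 488, 806 and 478 CPM at ZT4 and 4567, 779 and 4671 at ZT16, with replicate 2 inside the ZT4 range (log2 fold change 2.5 ± 0.72, adjusted p = 0.128). Cebpd was at 55.6, 114 and 156 CPM at ZT4 and 1719, 542 and 1045 at ZT16, raised in all 3 and least in replicate 2 (log2 fold change 3.35 ± 0.58, adjusted p = 0.0401). Cebpd did not hold without replicates 1 and 3 (log2 fold change 2.33 in the 20-sample fit). Nr3c1, the receptor itself, was at 182, 192 and 191 CPM at ZT4 and 247, 245 and 217 at ZT16 and did not pass (log2 fold change 0.33 ± 0.14, adjusted p = 0.183). ZT4 replicate 3 was the highest ZT4 sample in 18 of the 24, a share not taken over all genes tested. The count of 4 became 10 without ZT4 replicate 3, 11 without ZT16 replicate 2 and none without ZT4 replicate 2 (12 at an unadjusted p below 0.05), with 1 without ZT4 replicate 1 or ZT16 replicate 3 and 2 without ZT16 replicate 1.

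Ribosomal protein genes were lower at ZT16. Of 86 cytosolic members tested, 51 fell and the other 35 did not pass. Their median was −0.92, and 79 had ranges that did not overlap. With replicate 2 alone the median was −0.74, 82 of 86 lay below the ZT4 range and 11 of 86 fell in the 20-sample fit. The list summed to 35681, 52294 and 54843 CPM at ZT4 and to 26789, 30623 and 26574 CPM at ZT16. Rpl27, of the large subunit, was at 184, 257 and 242 CPM at ZT4 and 115, 123 and 100.2 at ZT16 (log2 fold change −1.01 ± 0.17, adjusted p = 0.0144), and Rps15, of the small subunit, at 236, 334 and 365 CPM at ZT4 and 144, 174 and 142 at ZT16 (log2 fold change −1.02 ± 0.18, adjusted p = 0.0164). ZT4 replicate 1 was the lowest of the ZT4 samples in both. The call rests on single samples, since none of the 86 passed in edgeR without ZT4 replicate 2, ZT16 replicate 1 or ZT16 replicate 3, with an unadjusted p below 0.05 in 75, 74 and 75. It was 73, 42 and 14 without ZT4 replicate 1, ZT16 replicate 2 and ZT4 replicate 3.

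The nuclear genes of the respiratory chain were lower as well, and their counts stand beside 2.41% of all genes tested that fell. Of 16 ATP synthase genes 7 fell and none rose (median −0.62), and all 16 had ranges apart. With replicate 2 alone at ZT16 the ATP synthase median was −0.495. Of complex I 6 of 37 fell (median −0.46), of complexes II and III 3 of 14 (−0.39), of cytochrome c oxidase 3 of 12 (−0.51) and of mitochondrial ribosomal proteins 5 of 77 (−0.37), and none rose. With replicate 2 alone these medians were −0.30, −0.28, −0.31 and −0.21, each a smaller fall than over 6 samples. Without ZT4 replicate 2, ZT16 replicate 1 or ZT16 replicate 3 no gene of these 5 lists passed in edgeR, with an unadjusted p below 0.05 in 12 of 16 ATP synthase genes each time. Atp5g1, a subunit of the rotor ring, was at 221, 222 and 238 CPM at ZT4 and 125, 149 and 107 at ZT16 (log2 fold change −0.84 ± 0.16, adjusted p = 0.0187). Ndufa11, of complex I, was at 83.2, 110.5 and 100.5 CPM at ZT4 and 47.9, 56.7 and 47.8 at ZT16 (log2 fold change −0.95 ± 0.17, adjusted p = 0.0168), and Cox6b1, of cytochrome c oxidase, at 225, 245 and 278 CPM at ZT4 and 128, 166 and 127 at ZT16 (log2 fold change −0.83 ± 0.16, adjusted p = 0.0212). All 3 were lower in each ZT16 sample. None of 12 genes encoded in mitochondria passed in edgeR (median −0.62; 2 at an unadjusted p below 0.05, 2 in DESeq2 and none in limma voom), and the ranges of all 12 overlapped. None of 31 proteasome genes passed in edgeR (median −0.30; 12 at an unadjusted p below 0.05, 5 in DESeq2 and 2 in limma voom), and 16 had ZT16 ranges below those at ZT4.

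Short transcripts as a whole were lower at ZT16, and these lists are made of short transcripts. Among genes outside the ribosomal protein and nuclear respiratory lists, the median log2 fold change was −0.60 for 386 genes of up to 400 bases of effective length, −0.39 from 400 to 600, −0.26 from 600 to 800, −0.12 from 1000 to 1500 and 0.13 above 4000 bases. In the list members the median was −0.77, −0.65, −0.60 and −0.33 in the first 3 of these bins and from 1000 to 1500 bases, lower than other genes of like length in each. The shortest bin deviated from the mean of the 6 samples by 0.13, 0.39 and 0.38 at ZT4 and −0.25, −0.11 and −0.41 at ZT16. Each ZT4 sample lay above each ZT16 sample. Mean fragment length was 169, 170.1 and 202 bases at ZT4 and 174, 183 and 217 at ZT16. The ranges overlapped, but each ZT16 sample had longer fragments than the ZT4 sample of the same number. The part of fragment length in this trend was not tested. With offsets for transcript length in each sample, 37 of 86 ribosomal proteins fell with a median of −0.89, 6 of 16 ATP synthase genes fell with a median of −0.57, and none of the 14 genes of complexes II and III passed (9 at an unadjusted p below 0.05) with a median of −0.40. The medians moved by less than 0.05 from those without offsets. These offsets adjust only for differences in a gene's effective length between samples, so they cannot remove a trend between short and long genes. The part of transcript length in these lists was not tested.

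**Figure D4:**
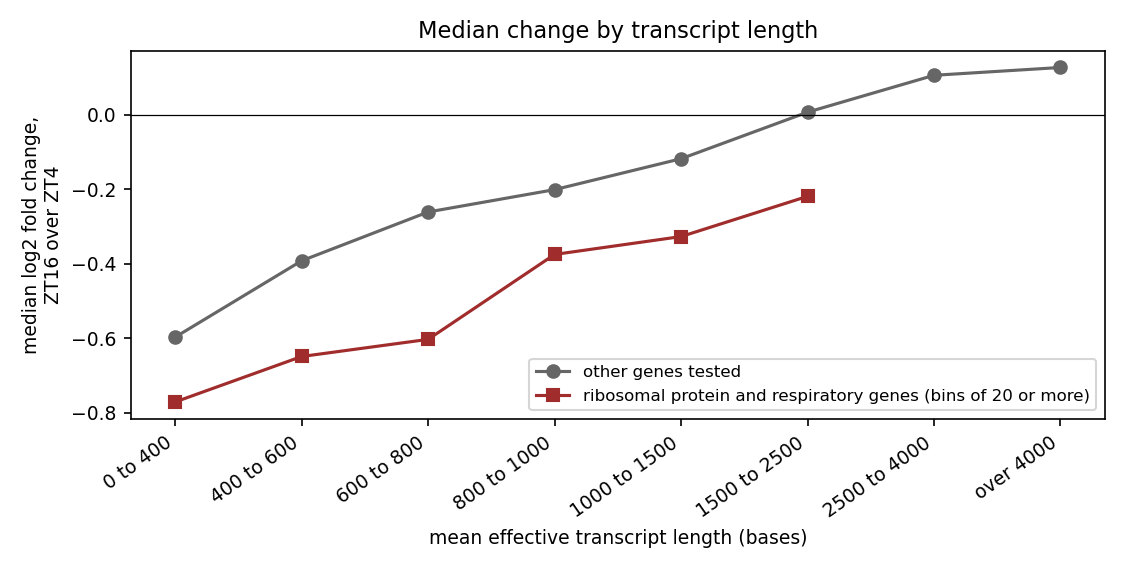
Median log2 fold change of ZT16 over ZT4 (vertical axis) for bins of mean effective transcript length in bases (horizontal axis), for ribosomal protein and nuclear respiratory genes (red squares, bins of at least 20 genes) and all other genes tested (grey circles). Other genes run from −0.60 in the shortest bin to 0.13 in the longest, and the listed genes lie below them in each bin shown.

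Genes of fuel use and low oxygen gave smaller counts. Over all genes tested, 1.87% rose and 2.41% fell, to be set beside the counts of these lists. Of 29 genes of FoxO factors and insulin signalling 4 rose and 1 fell. Irs2, a docking protein of the insulin receptor, was at 55.5, 86.7 and 58.8 CPM at ZT4 and 217, 124 and 234 at ZT16 (log2 fold change 1.51 ± 0.26, adjusted p = 0.0168). Foxo3, a factor of resting cells, was at 22, 23 and 38 CPM at ZT4 and 63, 58.7 and 58.1 at ZT16 (log2 fold change 1.12 ± 0.23, adjusted p = 0.0276), with replicate 2 as high as the others. Ccng2, a FoxO target that restrains the cell cycle, rose by 1.09 ± 0.19, and Pdk4, which blocks pyruvate from entering mitochondria, by 1.10 ± 0.24. The growth factor gene Igf2 was at 42.3, 48.8 and 44.6 CPM at ZT4 and 19.7, 24.6 and 18.3 at ZT16 (log2 fold change −1.11 ± 0.21, adjusted p = 0.0194). None of these 5 passed in the 20-sample fit without replicates 1 and 3. Of 22 hypoxia genes 3 rose, Vegfa, Ddit4 and Slc2a3, and 1 did without replicates 1 and 3. Vegfa, the vessel growth factor, was at 33.9, 30.6 and 45.1 CPM at ZT4 and 94.3, 60.9 and 91.8 at ZT16 (log2 fold change 1.18 ± 0.22, adjusted p = 0.0202). Of 18 glycolysis genes Eno1 (−0.68 ± 0.15) and Gapdh (−0.69 ± 0.17) fell and both held without replicates 1 and 3. Without ZT16 replicate 3 no gene of these 3 lists passed in edgeR, with an unadjusted p below 0.05 in 15 of 29, 10 of 22 and 5 of 18. Angptl4, a lipase inhibitor induced by fasting, was at 73.2, 321 and 26.4 CPM at ZT4 and 9.31, 11.8 and 7.84 at ZT16. Its ranges did not overlap, but the ZT4 values were far apart and it did not pass (log2 fold change −3.86 ± 1.11, adjusted p = 0.144).

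Of 24 heat shock and cold-inducible genes none rose and 1 fell in edgeR, against 7 and 1 in DESeq2 and none and 2 in limma voom. Over all genes tested, 4.28% differed in edgeR in either direction. The gene that fell was Cirbp, which encodes a cold-inducible RNA-binding protein, at 282, 238 and 305 CPM at ZT4 and 158, 183 and 119.5 at ZT16 (log2 fold change −0.84 ± 0.18, adjusted p = 0.0302). It held without replicates 1 and 3 (adjusted p = 0.0479). The chaperone Hspa8 was at 2068, 2077 and 2065 CPM at ZT4 and 4721, 2276 and 7444 at ZT16, high in replicates 1 and 3 and close to ZT4 in replicate 2 (log2 fold change 1.22 ± 0.36, adjusted p = 0.0868), and in 16 of the 24 genes replicates 1 and 3 were above every other sample. Of 27 genes of the unfolded protein and integrated stress response 3 rose. Dnajb9, a cochaperone of the endoplasmic reticulum, was at 54.3, 54.5 and 43.2 CPM at ZT4 and 192, 102 and 126 at ZT16 (log2 fold change 1.47 ± 0.23, adjusted p = 0.0125) and held without replicates 1 and 3. Herpud1, which takes part in disposal of misfolded proteins, rose by 0.87 ± 0.16 and Ddit3 (CHOP) by 1.94 ± 0.35, and neither held (adjusted p = 0.0711 and 0.113).

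Matrix genes held some of the changes with the smallest p. Lamc3, a laminin chain of basement membranes, had the smallest p of all genes and was at 8.51, 8.48 and 9.66 CPM at ZT4 and 50.1, 62.7 and 72.3 at ZT16 (log2 fold change 2.80 ± 0.23, adjusted p = 0.000996). Col5a3, a collagen V chain, was at 437, 471 and 360.5 CPM at ZT4 and 153, 153 and 147 at ZT16 (log2 fold change −1.48 ± 0.15, adjusted p = 0.00208). Both were alike in the 3 ZT16 samples and held without replicates 1 and 3. Of 33 matrix genes Nid1, a linker of the basement membrane, rose by 1.23 ± 0.21, and Col5a1 (−0.77 ± 0.16) and Sparc (−0.64 ± 0.16) fell beside Col5a3. Over all genes tested, 1.87% rose and 2.41% fell. Col5a1 did not hold without replicates 1 and 3, and it missed the threshold in the edgeR fit of all 22 samples (adjusted p = 0.0525). Klf13, a Krüppel-like factor, was at 79.7, 52.5 and 87.1 CPM at ZT4 and 277, 391 and 287 at ZT16 (log2 fold change 2.12 ± 0.22, adjusted p = 0.00208), highest in replicate 2; the gene Gm27252 lies inside Klf13, and their reads cannot be told apart without strand. Trip10, an adaptor of membrane and actin remodelling, was at 111, 126 and 129 CPM at ZT4 and 365, 348 and 371 at ZT16 (log2 fold change 1.57 ± 0.14, adjusted p = 0.00131). Lamc3, Klf13 and Trip10 were chosen after their values were seen, for their small p, and all 3 held without replicates 1 and 3.

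Among the widest changes in genes of at least 10 CPM were receptors and regulators. Agtr2, an angiotensin II receptor, was at 20, 39.4 and 10.7 CPM at ZT4 and 0, 1.90 and 0.145 at ZT16 (log2 fold change −5.07 ± 0.99, adjusted p = 0.0351). It did not hold without replicates 1 and 3 (log2 fold change −3.61 in the 20-sample fit). Fgfr2, a fibroblast growth factor receptor, had 1 count at ZT4 and 243 at ZT16, with 16, 3.79 and 15.8 CPM at ZT16. Tnfsf9, a ligand of the TNF family, was at 2.53, 1.54 and 1.35 CPM at ZT4 and 23.8, 6.27 and 29.6 at ZT16 (log2 fold change 3.43 ± 0.58, adjusted p = 0.0158), and Tob1, which restrains proliferation, at 35.9, 35.3 and 34.4 CPM at ZT4 and 338, 98.5 and 306 at ZT16 (log2 fold change 2.81 ± 0.46, adjusted p = 0.0286). In Fgfr2, Tnfsf9 and Tob1 replicate 2 was the lowest of the ZT16 samples and above every ZT4 sample. Ywhaq-ps3, a processed copy of a 14-3-3 gene that may share reads with its parent, had 318 counts at ZT4 and none at ZT16, at least 97.1-fold lower if 3 counts in the whole ZT16 group are taken as the floor.

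Genes of stem cell identity mostly did not pass. Of 17 myogenic regulators Id4 rose, at 4.14, 4.88 and 3.22 CPM at ZT4 and 14.2, 8.16 and 30.5 at ZT16 (log2 fold change 2.10 ± 0.49, adjusted p = 0.04). Id4 was the only 1 of the 17 to pass, against 4.28% of all genes tested. Myf5 (0.15 ± 0.21), Myod1 (−0.10 ± 0.20) and Myog (−0.32 ± 0.66) did not pass. Of the 10 stem cell markers Cdh15, a cadherin of muscle stem cells, fell, at 601, 885 and 744 CPM at ZT4 and 379.7, 414 and 517 at ZT16 (log2 fold change −0.77 ± 0.19, adjusted p = 0.0464). Cdh15 did not hold without replicates 1 and 3 (log2 fold change −0.84 in the 20-sample fit). Of 33 quiescence and Notch genes none rose in edgeR (4 in DESeq2 and 2 in limma voom), and the collagen genes Col5a3 and Col5a1 fell. None of 18 mitosis genes passed in edgeR (1 at an unadjusted p below 0.05, none in DESeq2 or limma voom), nor did any of 23 genes of G1 and DNA replication (7 at an unadjusted p below 0.05, 2 in DESeq2 and 1 in limma voom). Ccnd1, the cyclin of G1, was at 137, 142 and 69.6 CPM at ZT4 and 59.7, 37.5 and 62.9 at ZT16 (log2 fold change −1.12 ± 0.29, adjusted p = 0.0584) and fell in the 20-sample fit without replicates 1 and 3 (adjusted p = 0.0113). The contractile genes Tagln (290.4, 237 and 219 CPM at ZT4 and 93.3, 71.9 and 70.3 at ZT16, log2 fold change −1.66 ± 0.17, adjusted p = 0.00208) and Acta2 (876, 791 and 548 CPM at ZT4 and 467, 296 and 255 at ZT16, log2 fold change −1.12 ± 0.25, adjusted p = 0.0371) fell and held, while the other 8 mural markers did not pass. The mural list summed to 2230 to 2419 CPM at ZT4 and 1461 to 1909 CPM at ZT16.

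Chemokine and NF-kB genes did not pass over 6 samples in edgeR. None of 11 chemokine and cytokine genes did (5 at an unadjusted p below 0.05, 4 in DESeq2 and 2 in limma voom). None of 20 NF-kB genes did (6 at an unadjusted p below 0.05, 3 in DESeq2 and 1 in limma voom), and 17 of the 20 had positive values. Nfkbiz, an NF-kB cofactor, was at 14.6, 12.6 and 7.29 CPM at ZT4 and 636, 12.4 and 310.4 at ZT16 (log2 fold change 4.78 ± 1.52, adjusted p = 0.176), high in replicates 1 and 3 and within the ZT4 range in replicate 2. Ccl2, a monocyte attractant, was at 1.03, 2.18 and 3.39 CPM at ZT4 and 22.8, 3.64 and 8.13 at ZT16 (log2 fold change 2.40 ± 0.70, adjusted p = 0.0782), and Nampt, which makes a precursor of NAD, at 23.7, 23.1 and 16.3 CPM at ZT4 and 34.7, 38.6 and 35 at ZT16 (log2 fold change 0.78 ± 0.23, adjusted p = 0.0746). Cxcl12, which holds stem cells in their niche in other tissues, was at 36, 46.8 and 68.5 CPM at ZT4 and 70.5, 101 and 76.1 at ZT16 (log2 fold change 0.71 ± 0.24, adjusted p = 0.113). Nampt and Cxcl12 passed without replicates 1 and 3 (adjusted p = 0.0259 and 0.0182). Of 18 interferon genes Gbp3 and Ifit1 rose, against 1.87% of all genes tested. Ifit1 was at 8.97, 2.44 and 7.96 CPM at ZT4 and 16.9, 42.7 and 29.8 at ZT16 (log2 fold change 2.21 ± 0.49, adjusted p = 0.0374), highest in replicate 2. Neither Gbp3 nor Ifit1 passed without ZT4 replicate 2, ZT16 replicate 1 or ZT16 replicate 3. The macrophage markers Cd68 and Cd14 rose at levels of at most 13.01 CPM.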

How the data were processed

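The deposited files hold, per the file headers, RSEM estimates for each transcript in each of 22 samples, in expected counts, TPM and effective lengths. The submitters' processing notes name Trimmomatic 0.33, STAR 2.5.2, RSEM 1.3.3, DESeq2 and the build mm10, with no settings. Annotation release and use of strand are not given in the sources used here. The authors deposited expected counts without normalization, and these were summed here over the transcripts of each of 43430 genes and rounded to whole numbers. TPM, which the authors' RSEM run scaled to a fixed total per sample, served only to weight transcripts when lengths were averaged. Gene names and positions came from the reference annotation on GRCm38, and promoters from RefSeq on GRCm38.p6.

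Genes were filtered with a minimum count of 10 and a minimum total of 15 (edgeR's filterByExpr), scaled by TMM and tested with edgeR's quasi-likelihood test (edgeR 4.0.16, R 4.3.3), ZT16 over ZT4, on the 6 samples, and on the 4 samples without ZT16 replicates 1 and 3. P-values were adjusted by Benjamini-Hochberg over all genes tested, with a threshold of 0.05, and errors are standard errors of the log2 fold change. The tests ran on 4 residual degrees of freedom with 6 samples and 2 with 4 samples. Alternatives were DESeq2 1.42.0, limma voom (limma 3.58.1), DESeq2 size factors, no filter, offsets for transcript length, all groups in the fit (22 samples, or 20 without ZT16 replicates 1 and 3), a replicate block and each sample left out. The fits were tested on simulated data.

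The 49 gene lists (4 of clock genes, 33 of pathways, 12 of cell markers) and the comparison itself were chosen with earlier results of these data known. Lists are described by counts and medians. Named genes are the clock genes, the 8 highest and 8 lowest fold changes among genes that passed with at least 10 CPM in the higher group and ranges apart (over 6 samples, and again among those that also pass without ZT16 replicates 1 and 3), up to 6 members of each list with the smallest p, and Pax7, Myf5, Myod1, Myog, Ccl2, Nampt, Fos, Egr1 and Junb. Idi1, Cyp51, Nsdhl, Sc5d, Hmgcs1, Mylip, Srebf1, Dusp1, Nr3c1, Atf3, Dbi, Lamc3, Klf13, Trip10 and Gm27252 stand outside this rule and were chosen after their values were seen. Some genes are not reported here. The medians by transcript length were added after the data were seen.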

Additional observations from a re-analysis of the deposited data

How the results depend on the processing

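The count of 577 genes over 6 samples was 1395 with DESeq2, 1107 with limma voom, 992 without a filter, 2663 with all groups in the fit, and 2 without ZT16 replicates 1 and 3 together. It ranged from 42 to 753 when 1 sample was left out. DESeq2 size factors gave 532 and offsets for transcript length 416. The count of 2 with ZT16 replicate 2 alone was 115 with DESeq2, 21 with limma voom, 122 without a filter and 467 with all groups in the fit, and ranged from 10 to 270 when 1 ZT4 sample was left out. With the replicate block 380 genes passed over 6 samples. Deviations from the group means of same-numbered samples correlated at 0.116, −0.06 and 0.007, and not every sample correlated best with its own number. Mean fragment length was highest in replicate 3 of each time, at 202 bases at ZT4 and 217 at ZT16. Whether same-numbered samples shared a batch was not tested. Genes that had not passed changed sign. Clock was at −0.065 in limma voom and −0.21 to 0.44 with 1 sample left out. Myod1 was at 0.058 in limma voom and −0.26 to 0.03 with 1 sample left out, and Myog at −0.73 to 0.26. Pax7 was at 0.025 with length offsets and 0.075 without ZT16 replicates 1 and 3, Srebf1 at −0.30 with length offsets, and Egr1 at −0.75 without ZT16 replicates 1 and 3. No other of the 103 genes named in the text and tested changed direction under these settings. Of the 72 that passed, 71 no longer did with replicate 2 alone at ZT16, where fewer samples enter the fit. In that fit, fewer samples and the absence of ZT16 replicates 1 and 3 cannot be told apart. The cause of the changes under these settings was not tested. At 5965957 to 8108753 counts a sample, genes under a few CPM rest on few counts, and 3 samples a group let 1 sample decide many calls.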
